A study of Mus musculus with 3 samples.

Results

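The genes described here encode 9 chemoattractant receptors: Ccr1, Ccr2, Ccr7, Ccrl2, Cx3cr1, Cxcr4, Fpr1, Fpr2 and Cmklr1. They were taken by gene symbol from the 55536 gene identifiers of the deposited tables, and all 9 were found. Chemoattractant receptors span the membrane and are coupled to inhibitory G proteins. When a ligand gradient reaches a myeloid cell, they signal through G protein βγ subunits to phosphoinositide 3-kinases and Rac exchange factors, and the cell turns and crawls towards the source. Ccr1, Ccr2, Ccr7, Cx3cr1 and Cxcr4 bind chemokines, Fpr1 and Fpr2 bind formylated bacterial peptides and host proteins, and Cmklr1 binds chemerin. Ccrl2 also binds chemerin but is an atypical receptor that presents its ligand rather than signalling by G proteins.

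RNA was measured in the chromatin fraction, which holds RNA still being made or not yet released from its gene, by total RNA sequencing after ribosomal RNA depletion. All 3 libraries came from primary macrophages grown from bone marrow of C57BL/6J mice, in 1 condition. The cells had been given Lipid A, the TLR4-binding part of lipopolysaccharide, at 100 ng/ml for 12 h, kept without it for 12 h and exposed to 100 ng/ml again for 10 min before collection. The labels name a shared donor identifier and separate biosamples for replicates 1, 2 and 3, with 1 µg, 250 ng and 500 ng of input RNA, so input amount and replicate cannot be told apart. A p-value here therefore describes how far these particular libraries lie apart, which may be technical. Cells without Lipid A, or with a single dose, were not analysed here, and the values are levels after restimulation and not responses to it.

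The deposited tables are of 2 kinds. The gene tables hold expected counts and TPM (a share of all transcripts, scaled for length) made from an alignment, and the read-based tables hold estimated counts and TPM per transcript, summed here per gene. Rounded expected counts on genes totalled 13538605, 19949204 and 18224466 in replicates 1, 2 and 3. Macrophage markers were at 1 TPM or more in every library for 12 of 12 genes, led by Adgre1, Lyz2 and Csf1r, with a summed level of 949, 1096 and 819 TPM. The lowest of them, Cebpa, was at 2.88, 5.77 and 5.87 TPM. Cd14, the co-receptor for lipopolysaccharide, was the 1 macrophage marker of 12 tested that varied between libraries beyond genes of its level (edgeR goodness of fit adjusted p = 0.0194), at 6.81, 19.6 and 20.4 TPM. Of all genes, 1.12% were called by this test.

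Some receptors share sequence with a neighbouring copy, and reads from such stretches cannot be placed by sequence alone. On chromosome 17 (mm10), the pseudogene Gm5966 matches a run of 161 coding bases of Fpr2 in GENCODE M21 transcripts. Over the whole coding sequence, Fpr2 was 88.1% identical to Fpr3, another formyl peptide receptor, and 69.1% to Fpr1. The annotated Fpr3 gene also overlaps Fpr2 on the same strand. Of 1296 exon bases of Fpr2, 1268 lie inside the Fpr3 gene and 48 in Fpr3 exons. Ccr2 was 63.6% identical to Ccr1. Of all 50-base windows in Fpr2's transcripts, 31.5% also occurred in another gene, 28.4% in Gm5966 and 6.33% in Fpr3. The share was 1.91% for Ccr2 and 1.06% for Cx3cr1, 0.329% for Cmklr1 and 0.0784% for Fpr1. It was 0 for Ccrl2, Ccr1, Cxcr4 and Ccr7. With windows of 31 bases Ccr7 alone of these 4 was at 0, beside 0.642% for Ccr1, 0.231% for Ccrl2 and 0.111% for Cxcr4.

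Cmklr1, Fpr2 and Ccrl2 stood highest in the gene tables, and Ccr7 and Cx3cr1 were close to 0. In all, 5 of the 9 receptors were at 1 TPM or more in every library, which 45.6% of protein-coding genes reached. By read-based TPM 7 of the 9 reached it, against 56.2% of protein-coding genes. The receptors' median was 1.27 ± 0.15 on the log2(TPM + 0.1) scale (SD, n = 3), beside −0.43 ± 0.13 over all 22028 protein-coding genes. In the read-based tables these medians were 1.64 ± 0.20 and 1.28 ± 0.03, so the gap between receptors and all protein-coding genes was 1.69 ± 0.09 in one kind of table and 0.36 ± 0.17 in the other.

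**Figure D1:**
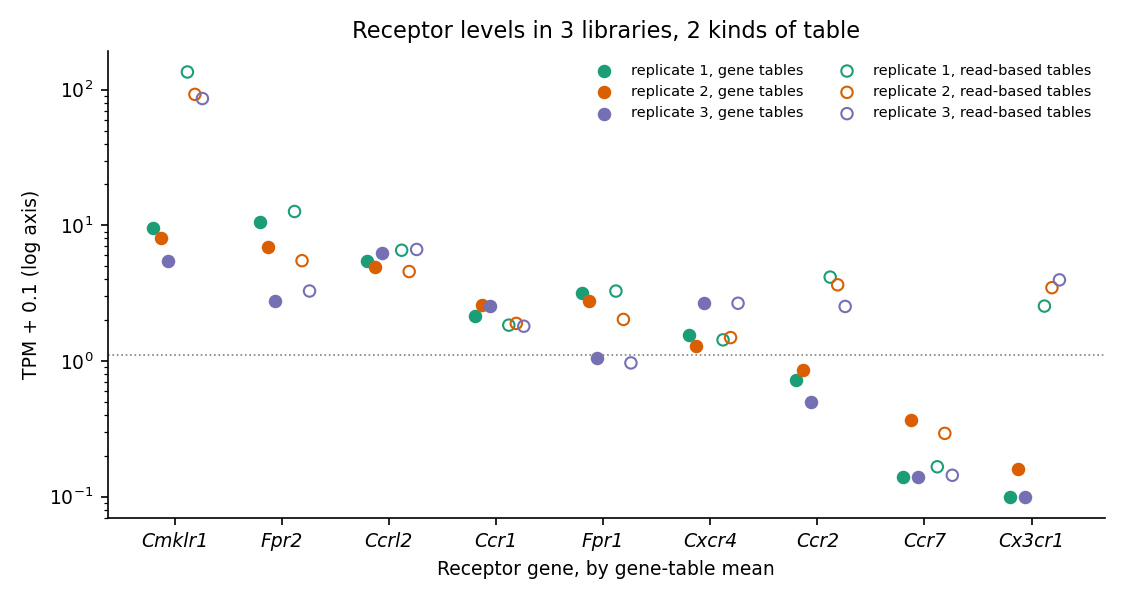
Level of each receptor gene (TPM plus 0.1, log axis) in replicates 1, 2 and 3, with filled points for the gene tables, open points for the read-based tables and a dotted line at 1 TPM. Cmklr1, Ccr2 and Cx3cr1 lie higher in the read-based tables in all 3 libraries, Ccr1 lies lower in them, and the ranges of the other 5 genes overlap between tables.

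Among the receptors of non-chemokine ligands, Cmklr1 (ENSMUSG00000042190.12, mm10 chr5:113612354-113650426, minus strand) was at 9.51, 8.02 and 5.40 TPM in replicates 1, 2 and 3, on 332, 357 and 234 expected counts. Its mean of 7.64 ± 2.08 TPM (SD, n = 3) was higher than in 70.7% of protein-coding genes. Fpr2 (ENSMUSG00000052270.7, chr17:17887824-17893952, plus strand), which binds formyl peptides, serum amyloid A and annexin A1, stood at 10.5, 6.85 and 2.69 TPM on 125, 96.9 and 38.0 counts. Fpr2 was above Cmklr1 in replicate 1 only, and below it in the other 2 libraries. Fpr1, the high-affinity formyl peptide receptor (ENSMUSG00000045551.7, chr17:17876471-17883940, minus strand), was at 3.09, 2.65 and 0.960 TPM on 46, 48 and 17 counts. Both formyl peptide receptors were thus lowest in replicate 3.

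Ccrl2 (ENSMUSG00000043953.12, chr9:111054486-111057519, minus strand) was steady, at 5.40, 4.86 and 6.17 TPM on 149, 173 and 196 counts. Ccr1 (ENSMUSG00000025804.5, chr9:123962124-123968692, minus strand), the receptor of Ccl3 and Ccl5, was at 2.04, 2.47 and 2.44 TPM on 71, 108 and 104 counts. These 2 genes had the narrowest ranges of all 9, with a highest over lowest TPM of 1.27 and 1.21. Cxcr4 (ENSMUSG00000045382.6, chr1:128588199-128592293, minus strand), which binds Cxcl12 and holds leukocytes in bone marrow, was at 1.45, 1.19 and 2.57 TPM on 28, 30 and 66 counts. It was highest in replicate 3, where the formyl peptide receptors were lowest.

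The receptors that mark monocyte recruitment and dendritic cell migration were low by TPM in the gene tables. Ccr2 (ENSMUSG00000049103.14, chr9:124101950-124113557, plus strand), through which Ccl2 draws monocytes out of marrow, was at 0.630, 0.760 and 0.400 TPM on 32.1, 54.2 and 28.1 counts. Ccr7 (ENSMUSG00000037944.8, chr11:99144196-99155077, minus strand), which guides dendritic cells to lymph nodes, had 1, 8 and 1 counts and 0.0400, 0.270 and 0.0400 TPM. Cx3cr1 (ENSMUSG00000052336.7, chr9:119901616-120069879, minus strand), the fractalkine receptor of patrolling monocytes and microglia, had 0, 3 and 0 counts. By counting error alone, 0 counts allow up to 0.222 CPM (counts scaled to library size) in replicate 1 and 0.165 in replicate 3, the limit that 3 counts set, although a listed 0 can also be a failed estimate. In the read-based tables Ccr2 and Cx3cr1 were at means of 3.34 and 3.22 TPM. There they stood above Ccr1 at 1.74, Fpr1 at 1.99 and Cxcr4 at 1.76.

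In order of mean level the 9 genes form 8 neighbouring pairs. The TPM ranges over libraries did not overlap for Ccrl2 above Ccr1, Cxcr4 above Ccr2 and Ccr2 above Ccr7. The difference was 1.20 ± 0.22 for Ccrl2 minus Ccr1, 1.36 ± 0.95 for Cxcr4 minus Ccr2 and 1.81 ± 0.58 for Ccr2 minus Ccr7 on the log2(TPM + 0.1) scale. Ccr7 was above Cx3cr1 in 3 of 3 libraries too, with overlapping ranges. The order of the other 4 pairs differed between libraries, so Cmklr1, Fpr2 and Ccrl2 cannot be ranked among themselves, nor can Ccr1, Fpr1 and Cxcr4. The exact two-sided sign-flip test cannot give less than p = 0.25 with 3 libraries, and no pair had an adjusted p below 0.5 over the 8 pairs. In the read-based tables the difference turned for Cxcr4 minus Ccr2, at −0.92, and for Ccr7 minus Cx3cr1, at −4.10.

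The next comparison asked which receptors differed between libraries more than other genes of their level. By edgeR's goodness-of-fit test 1 of the 7 receptors with enough counts was called at an adjusted p (Benjamini-Hochberg, over 14789 genes) under 0.05, where 1.12% of all genes were called. This was Fpr2, with an adjusted p of 0.0216. On the TMM-scaled CPM scale Fpr2 was at 8.71, 4.94 and 2.19, a highest over lowest of 3.98. Its coefficient of variation was 0.620, against 0.223 for a gene of its level and counts. The authors' interval bounds for its TPM were 8.13 to 11.6 in replicate 1 and 1.81 to 3.46 in replicate 3, and did not overlap. The call also held on the read-based estimated counts, at an adjusted p of 0.0176 by the same test, where 1 of 8 tested receptors and 1.15% of all genes were called. Without replicate 1 or replicate 3 it was lost, at an adjusted p of 0.316 and 1.00 by the same test. Fewer genes were called over all genes as well, 56 of 15101 without replicate 1 and 58 of 14901 without replicate 3. DESeq2 marked none of the 9 receptors as a dispersion outlier, Fpr2 included, and 115 of 24516 genes.

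Gm5966 was also highest in replicate 1 and lowest in replicate 3, at 26.7, 13.1 and 5.96 expected counts in replicates 1, 2 and 3 for the identifier that held them. In the gene tables a second identifier at the same place was listed at 0, and Fpr3 held 2, 2 and 0 counts. In the read-based tables the second Gm5966 identifier held 29.4, 27.8 and 2.58e-06 estimated counts, and the first held 0, 0 and 8.75. With the gene-table counts of Gm5966 and Fpr3 added to Fpr2, the adjusted p of edgeR's goodness-of-fit test was 0.00501, a fit chosen after seeing the data.

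Fpr1, whose gene begins 3883 bases from Fpr2 on the opposite strand, was at 3.21, 2.44 and 0.980 TMM-scaled CPM, a highest over lowest of 3.27. Its unadjusted p by edgeR's goodness-of-fit test was 0.0153 and its adjusted p 0.462, so it did not pass. Cxcr4 gave 1.95, 1.53 and 3.80 CPM with an unadjusted p of 0.0368 and an adjusted p of 0.721. Cmklr1 had a coefficient of variation of 0.264 against 0.165 for genes of its level, and an adjusted p of 0.933 by edgeR. Ccrl2, Ccr1 and Ccr2 varied less than a gene of their level and counts, with coefficients of 0.124, 0.0955 and 0.259 against 0.187, 0.219 and 0.273. Ccr7 and Cx3cr1 had too few counts to enter the test.

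**Figure D2:**
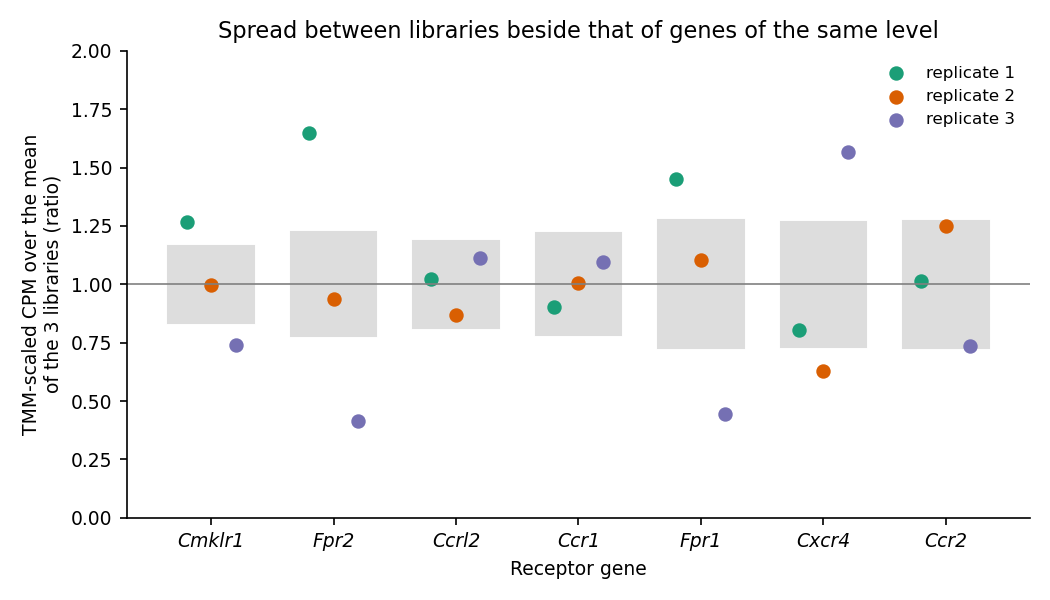
TMM-scaled CPM of the 7 tested receptors in each library, divided by the gene's mean over the 3 libraries, with a grey box of 1 plus or minus the coefficient of variation of a gene of that level and counts. Replicates 1 and 3 of Fpr2, at 1.65 and 0.415, lie outside its box, as do those of Fpr1 and Cmklr1 and replicates 2 and 3 of Cxcr4.

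Summed monocyte marker levels were lowest in the same library. The monocyte list (8 genes) summed to 8.97, 6.47 and 2.42 TPM in replicates 1, 2 and 3, and 6 of its 8 genes were lowest in replicate 3. Only 2 of the 8 had enough counts to be tested. Plac8 and Nr4a1 were among its 3 highest members, and its lowest was Chil3, with 1, 1 and 0 counts. The neutrophil list summed to 1.06, 1.13 and 0.860 TPM, led by Ngp, Mmp8 and Camp, and 7 of its 12 genes had no count in any library: S100a8, S100a9, Ltf, Elane, Ly6g, Retnlg and Cxcr2. Of these, Cxcr2 was at a mean of 4.06 TPM in the read-based tables, where Mpo, at 0.047 in the gene tables, was at 1.90. The dendritic cell list, led by Batf3, Zbtb46 and Itgae, summed to 10.5, 16.0 and 10.1 TPM, with Cd209a and Ccl17 at 0. The lymphocyte list, led by Pax5, Cd79b and Ms4a1, summed to 0.50, 1.22 and 0.15 TPM, with 6 of 12 genes at 0, among them Cd3e. Here too the tables differed, with Cd3d at a read-based mean of 13.7 TPM against 0.013 in the gene tables. Their part in the spread of Fpr2 was not tested. In bulk RNA, fewer cells of a type and less RNA per cell cannot be told apart. Of all 166 genes called, 135 were highest in replicate 1 and 99 lowest in replicate 3, as Fpr2 was.

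Ligand genes of these receptors were on chromatin in the same libraries. Of 17, 11 were at 1 TPM or more in every library. Of the same 17, 12 were lowest in replicate 3, as were 14 of 19 chemotaxis effectors and 5541 of 22028 protein-coding genes, 6819 of which had no count in any library. A tie went to the lowest-numbered library, so a gene at 0 in replicate 3 and in another library was not counted for replicate 3. By this rule 7202 protein-coding genes were lowest in replicate 1 and 2457 in replicate 2. Ccl5, a ligand of Ccr1, was at 192, 236 and 62.1 TPM. Saa3, of the serum amyloid A family that acts on Fpr2, was at 173, 186 and 47.2 TPM, and the chemokine gene Ccl4 at 65.7, 48.1 and 43.7. Of 12 tested ligand genes, 3 were called by edgeR's goodness-of-fit test, where 1.12% of all genes were: Saa3 at an adjusted p of 8.14e-07, Ccl5 at 4.04e-05 and the Ccr2 ligand Ccl2 at 0.0427, the last named after its value was seen. All 3 were lowest in replicate 3, like both formyl peptide receptors. Anxa1, whose product acts on Fpr2, was highest in replicate 3, at 27.6, 25.3 and 36.8 TPM. The ligands of Ccr7 and Cx3cr1, the 2 lowest receptors in the gene tables, were low in those tables as well: Ccl19 and Ccl21a, which bind Ccr7, had no count, and Cx3cl1 had 0, 1 and 0 counts. Cxcl12, the ligand of Cxcr4, had 0, 2 and 2 counts, and Rarres2, which encodes chemerin, was at 0.340, 0.440 and 0.280 TPM beside Cmklr1 at 5.40 to 9.51.

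**Figure D3:**
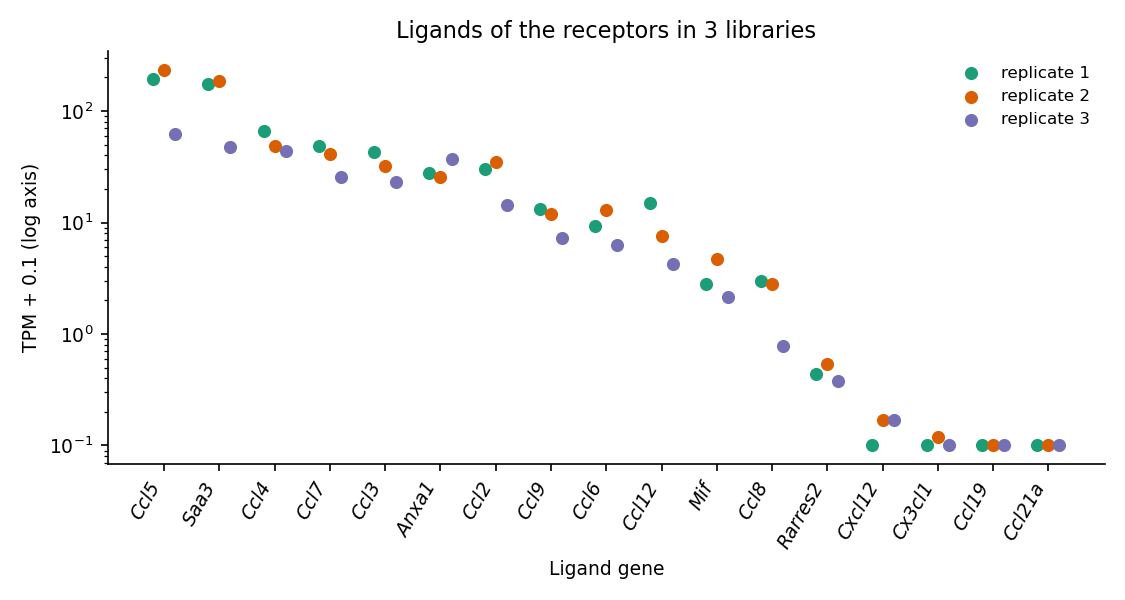
Level of 17 ligand genes (TPM plus 0.1, log axis) in replicates 1, 2 and 3. Ccl5 and Saa3 lie highest and are separated from their other 2 libraries in replicate 3, at 62.1 and 47.2 TPM, while Ccl19 and Ccl21a are at 0 in every library.

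Other receptors of the same kind gave the scale of these levels. Of 18 other chemokine receptors, 5 were at 1 TPM or more in every library and 3 had no count (Ccr8, Cxcr2 and Ackr3). Among them Cxcr6 was at 9.28 ± 1.99 TPM and the scavenging receptor gene Ackr4 at 2.72 ± 0.289 (SD, n = 3). Of 16 other non-chemokine receptors 5 passed 1 TPM. The complement receptor genes C3ar1 and C5ar1 were at 58.2 ± 7.32 and 6.03 ± 0.542 TPM, with the platelet-activating factor receptor gene Ptafr between them at 20.7 ± 2.10. The lowest were Fpr-rs3, Fpr-rs4, Fpr-rs6 and Fpr-rs7, paralogs of Fpr1 and Fpr2, all at 0. Next to Ccr1 and Ccr2 on chromosome 9, Ccr1l1 was at 0.860, 0.320 and 0.330 TPM and Ccr3 at 0.170, 0.180 and 0.180.

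Most downstream genes stood at higher levels than the receptors. Of 20 genes of coupling and desensitisation, 19 were at 1 TPM or more in every library. Arrb2, which encodes an arrestin that uncouples receptors, stood at 318 ± 45.3 TPM (SD, n = 3), the receptor kinase gene Grk2 at 99.4 ± 20.9 and the G protein subunit gene Gnb2 at 80.8 ± 12.9, with Rgs16 lowest at 0.663 ± 0.186. All 19 chemotaxis effectors passed 1 TPM, led by the Rac exchange factor gene Dock2 at 318 ± 31.2, Vav1 at 148 ± 17.8 and the phosphoinositide 3-kinase adaptor gene Pik3r5 at 122 ± 6.47. Rac1 was lowest at 10.0 ± 0.387. None of the 20 tested coupling genes and 19 tested effectors was called by edgeR's goodness-of-fit test, where 1.12% of all genes were.

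The 2 kinds of table gave different levels for 3 receptors. In the read-based tables Cmklr1, Ccr2 and Cx3cr1 were at least 2-fold higher by mean TPM, 3 of the 8 receptors with a mean of 1 TPM or more in either kind, where 32.3% of 13004 protein-coding genes were. None of the 8 was at least 2-fold lower, beside 0.261% of protein-coding genes. A share of 3 in 8 is near the background, so it says nothing particular about receptors, but it sets which receptors would be called present. The median ratio was 1.05 over the 9 receptors and 1.40 over protein-coding genes.

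**Figure D4:**
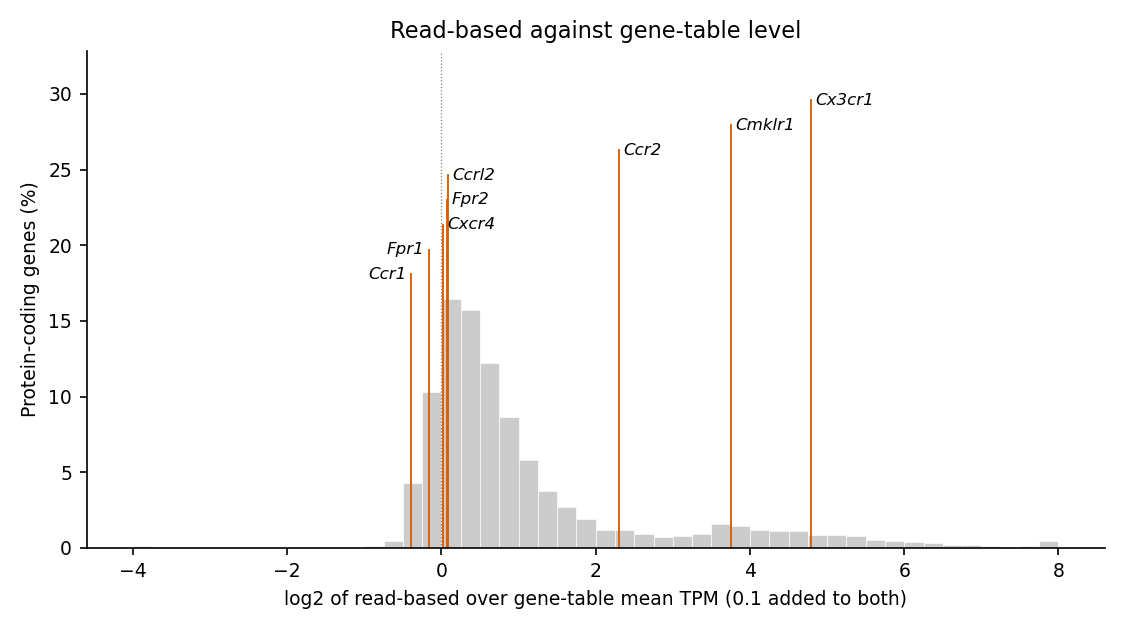
Log2 ratio of read-based to gene-table mean TPM (0.1 added to both) for 13004 protein-coding genes in grey bars, as percent of genes, the end bars holding all genes beyond them, and for 8 receptors as vertical lines whose height has no meaning. Ccr1, Fpr1, Cxcr4, Fpr2 and Ccrl2 lie between −0.39 and 0.09, and Ccr2, Cmklr1 and Cx3cr1 at 2.30, 3.75 and 4.79.

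Cx3cr1 differed most. It had 148, 350 and 356 estimated counts and 2.44, 3.37 and 3.86 TPM in the read-based tables, against 0, 3 and 0 counts in the gene tables. All of these estimated counts lay on Cx3cr1-201, whose 3697 windows of 31 bases all occur in other Cx3cr1 transcripts as well, and 2.54% of them in other genes. Over 78 exon bases Cx3cr1 also overlaps the exons of the antisense gene Gm33858, which had no count in the gene tables and 21, 24 and 21 in the read-based ones. These bases are exon 1 of Cx3cr1-203, which had no count in either kind of table. Cx3cr1-201, which held the estimated counts, does not reach Gm33858. A gene-table mean under 0.1 TPM with a read-based mean of 1 TPM or more was found for 1455 protein-coding genes, 6.61% of them, so Cx3cr1 is 1 of many. Whether the receptor gene was transcribed here cannot be read from these tables.

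Ccr2 was at 4.05, 3.54 and 2.42 TPM on 211, 331 and 218 estimated counts in the read-based tables, a mean 5.60 times that of the gene tables. Ccr2-201 took 68.1% ± 11.3 of that TPM (SD, n = 3), on 151, 204 and 97.9 counts, while the alignment-based transcript tables gave it 0, 1.94 and 0. There, the longest transcript Ccr2-203 and the single-exon Ccr2-202 held 46.2% ± 6.47 and 38.8% ± 13.5.

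Cmklr1 was at 135, 92.2 and 85.9 TPM in the read-based tables, 13.7 times its gene-table mean. Its 2 shortest transcripts, Cmklr1-203 (391 bases, 12 of them coding) and Cmklr1-204 (327 bases, noncoding), held 86.5% ± 0.502 of that TPM but 36.6% ± 2.73 of the estimated counts (SD, n = 3), since TPM divides by length. The alignment-based transcript tables gave both 0 in every library. Without them the read-based level was 18.0, 13.0 and 11.3 TPM, and the full-length Cmklr1-201 alone was at 9.06, 8.62 and 7.12. On the CPM scale the ratio between tables was 1.96 for Cmklr1, under 2-fold, against 4.05 for Ccr2 and 191 for Cx3cr1. No 31-base window of the 2 short transcripts occurs in another annotated gene. Cmklr1-203 begins inside the first intron of Cmklr1-201, and 1359 bases from it on the other strand lies Gm15736, an antisense gene at 12.6, 12.9 and 11.4 TPM in the gene tables and 58.1, 34.6 and 29.2 in the read-based tables.

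**Figure D5:**
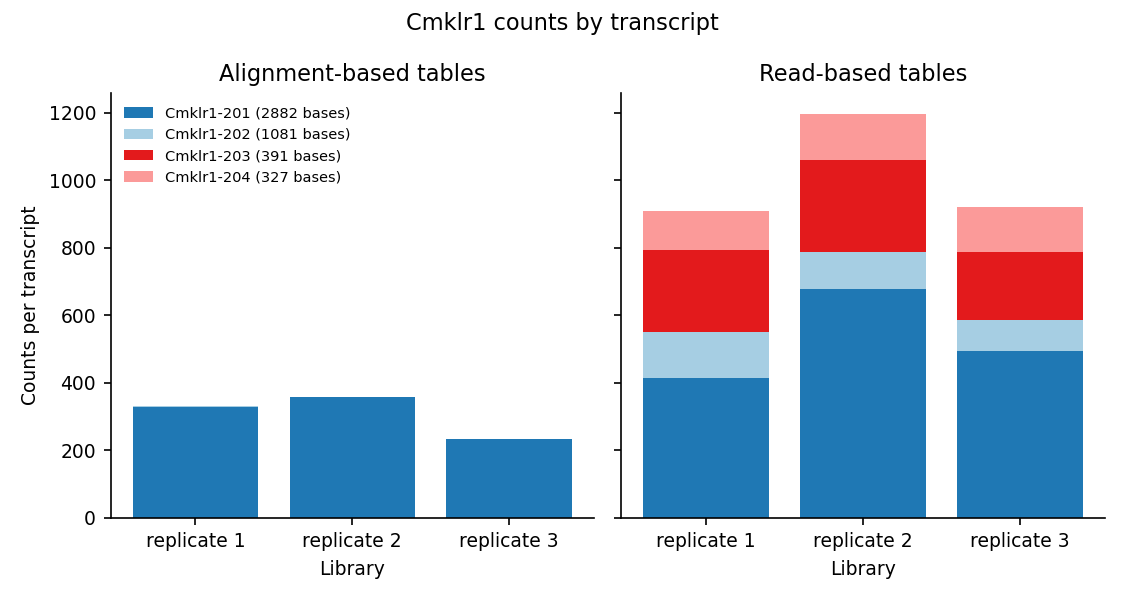
Counts of the 4 Cmklr1 transcripts in each library, stacked, in the alignment-based transcript tables (left) and the read-based tables (right). The 2 short transcripts (red shades) are at 0 on the left and hold 199 to 271 and 116 to 137 estimated counts on the right.

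For the other receptors the leading transcript was shared by both kinds of table. Ccrl2-201 held 76.6% ± 5.78 of Ccrl2 TPM and Ccrl2-203, which starts farther upstream, 19.8% ± 8.66 (SD, n = 3). Fpr2-201 held 86.2% ± 3.22 of Fpr2 TPM in the alignment-based tables and 59.0% ± 6.59 in the read-based ones, where Fpr2-202 took the rest. Cxcr4-201 held 92.5% ± 7.96. Ccr1, Fpr1 and Ccr7 have 1 annotated transcript each. None of the 21 annotated transcripts of the 9 genes carries the class label of a retained intron. Some exons still cover an intron of another transcript. Exon 1 of Ccr2-203 covers the intron between exons 1 and 2 of Ccr2-201, and exon 1 of Ccrl2-201 covers the first intron of Ccrl2-202.

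Sequence before the gene starts was available from RefSeq (GRCm38.p6) for 8 of the 9 receptors, with 10 start sites. Upstream sequence of 5 of them is printed because their levels differ most in steadiness and transcript use: Ccrl2 and Ccr1 had the narrowest ranges, Fpr1 and Fpr2 were both lowest in replicate 3, and the Cmklr1 site is the start of Cmklr1-203. Each line ends at the base before the start, with bases of annotated exons left out, and capitals mark a match to the NF-κB (κB) motif. The windows are chr9:111057520-111057768 for the most upstream Ccrl2 start, chr9:123968693-123968942 for Ccr1, chr17:17883941-17884189 for Fpr1 and chr5:113643604-113643853 for Cmklr1, all on the minus strand, and chr17:17887574-17887823 for Fpr2 on the plus strand.
Ccrl2: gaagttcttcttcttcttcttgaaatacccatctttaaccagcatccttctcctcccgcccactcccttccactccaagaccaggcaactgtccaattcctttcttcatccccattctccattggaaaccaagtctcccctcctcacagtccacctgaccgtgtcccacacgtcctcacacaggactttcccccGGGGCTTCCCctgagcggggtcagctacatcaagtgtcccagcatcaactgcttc
Ccr1: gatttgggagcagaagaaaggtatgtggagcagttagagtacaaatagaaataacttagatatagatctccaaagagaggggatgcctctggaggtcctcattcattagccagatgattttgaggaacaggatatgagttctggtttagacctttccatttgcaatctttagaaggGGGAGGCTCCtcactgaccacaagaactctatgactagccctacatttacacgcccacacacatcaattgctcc
Fpr1: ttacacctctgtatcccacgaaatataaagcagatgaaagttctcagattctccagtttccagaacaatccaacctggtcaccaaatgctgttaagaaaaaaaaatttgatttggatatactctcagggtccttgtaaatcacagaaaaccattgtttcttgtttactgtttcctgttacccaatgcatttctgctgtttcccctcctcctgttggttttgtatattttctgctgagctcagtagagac
Fpr2: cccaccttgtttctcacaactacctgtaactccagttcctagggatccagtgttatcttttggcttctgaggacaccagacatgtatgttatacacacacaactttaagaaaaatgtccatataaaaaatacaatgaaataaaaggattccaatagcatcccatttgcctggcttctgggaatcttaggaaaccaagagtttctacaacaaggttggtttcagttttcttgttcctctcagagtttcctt
Cmklr1: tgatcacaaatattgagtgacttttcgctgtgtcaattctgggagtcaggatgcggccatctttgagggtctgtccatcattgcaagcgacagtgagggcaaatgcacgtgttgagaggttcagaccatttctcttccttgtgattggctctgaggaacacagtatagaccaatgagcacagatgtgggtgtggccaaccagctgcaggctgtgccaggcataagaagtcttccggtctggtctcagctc
On either strand of the 250 bases before the start, the κB motif was found at 2 of the 10 receptor start sites. One match lay 56 to 47 bases before the most upstream Ccrl2 start, where both strands match. The other lay 74 to 65 bases before the Ccr1 start. The remaining Ccrl2 start sites, among them that of the leading transcript Ccrl2-201, had no match. The κB motif was found in 7.25% of all 32851 promoters. The interferon response motif GAAANNGAA was found at 1 of the 10, that of Ccr2, and in 7.13% of promoters. Annotated exon fills 233 of the 250 bases before that Ccr2 start, and the match lies in exon 1 of Ccr2-204. TGANTCA, TTGCNNAA and GAGGAAG, the motifs of AP-1, C/EBP and PU.1, were found at none of the 10 and in 6.75%, 9.56% and 10.6% of promoters. The motifs were searched separately, and a match is a run of letters and not a bound site.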

How the data were processed

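Chromatin RNA of 3 macrophage libraries in 1 condition was measured. The authors deposited 1 gene table a library, with expected counts, TPM and interval bounds, and transcript tables in the same format. Per the file headers and notes, these rest on mm10 alignments and GENCODE M21. Further transcript tables that the authors deposited hold estimated counts and TPM computed from reads directly. The interval bounds are treated as a score, as deposited, because their kind and level are not stated. Aligner, quantifiers and strand use: not given in the sources used here. Reads of antisense partners may therefore be mixed. Entries that are no gene (tRNA, spike-in, phiX) were left out; their share of expected counts by replicate was 1.39%, 0.288% and 0.283%. Read-based values were summed per gene, and 86 identifiers missing there were set to 0.

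Expected counts were rounded to whole numbers. With edgeR 4.0.16 under R 4.3.3, filterByExpr chose the genes, TMM gave the scaling, and a negative binomial model with only an intercept and a trended dispersion was fitted. Goodness-of-fit p-values came from the chi-square distribution of the deviance, with Benjamini-Hochberg adjustment and a threshold of 0.05. This procedure was also run on counts simulated from its own fitted dispersion. Most genes raised 2-fold in 1 library were not called there, so a receptor that was not called may still differ. Alternatives were DESeq2 1.42.0, no filter, the read-based counts, other thresholds and pseudocounts, and leaving out each replicate. Fpr2 summed with genes of shared sequence, and leaving out replicates for the order of levels and for transcripts, were chosen after seeing the data. Coding sequences were aligned with Biopython 1.88. The limit at 3 counts is one of counting error alone, because PCR copies without molecular identifiers are not separate molecules.

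The receptors, the gene lists and the tests were chosen with earlier results of these data known. Named are all 9 receptors, the 3 highest genes and the lowest of each other list, and chromosomal neighbours of receptors. Called ligand and macrophage marker genes are named as well, after their values were seen. A few genes and sequences that this rule covers are not reported here.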

Additional observations from a re-analysis of the deposited data

How the results depend on the processing

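The call on Fpr2 was also made with DESeq2 size factors, without the filter on low counts, on read-based counts, and with Gm5966 and Fpr3 added, at adjusted p from 0.00501 to 0.0408 by edgeR. The number of receptors called was 1 in each of these, 0 to 1 when 1 replicate was left out, and 0 by DESeq2 dispersion outliers (115 of 24516 genes). Over all genes, 56 of 15101 were called without replicate 1, 76 of 14675 without replicate 2 and 58 of 14901 without replicate 3. With all replicates 166 of 14789 were called. In the 7 tested receptors 3 had an unadjusted p under 0.05 by edgeR's goodness-of-fit test, beside 899 of 14789 genes. Without replicate 1 or replicate 2 the number was also 3 of 7, beside 824 of 15101 and 762 of 14675 genes. Without replicate 3 it was 0 of 7, beside 715 of 14901 genes. Receptors at 1 TPM or more in every library were 5, or 6 without replicate 3, and 1 (Cmklr1) at a threshold of 5 TPM. The median level on the log2 scale was 1.73 with a pseudocount of 1, 0.56 as a mean over receptors, 1.64 in the read-based tables and 2.99 with TPM rescaled to protein-coding genes, against 1.22 to 1.35 without 1 replicate. The order within neighbouring pairs turned in the read-based tables for Ccr1 minus Fpr1 (−0.011), Cxcr4 minus Ccr2 (−0.92) and Ccr7 minus Cx3cr1 (−4.10). Without 1 replicate, Fpr2 minus Ccrl2 ranged from −0.34 to 0.72 (−0.11 without replicate 2), Ccr1 minus Fpr1 from −0.34 to 0.58, and Fpr1 minus Cxcr4 from −0.15 to 1.07 (−0.12 without replicate 1). The cause was not tested. The number of receptors 2-fold apart between tables was 3 in every setting but CPM, where it was 2. No paired analysis was possible because all libraries belong to 1 condition. At these depths Ccr7 and Cx3cr1, at 8 counts or fewer a library, were left out of the test by the filter.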
